A study of Arabidopsis thaliana with 21 samples.

Results

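AT1G33750 and AT3G29410 are terpene synthase family genes of Arabidopsis thaliana, on chromosomes 1 and 3. They were followed by the probe set with the highest mean for each gene, which was in both cases the single named probe set, and they are 2 of 16411 genes that a single-gene probe set represented. The genes were chosen with results of these same arrays in view. AT1G33750 was among the larger differences from level flight at the start of parabola 1 and at the end of parabola 3, and AT3G29410 among those at the start of parabola 1. Their levels in the tubes and their differences from level flight are therefore given as a description, without a test.

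Whole roots of wild-type seedlings of the Wassilewskija (WS) ecotype, 12 days old and grown under 24 h light, were profiled on Affymetrix AraGene 1.0 ST arrays after fixation aboard a C-9 aircraft, whose parabolas alternate raised gravity with near weightlessness. The seedlings were held in Kennedy Space Center Fixation Tubes and were preserved by flooding a tube with RNALater. The 21 arrays formed 7 groups of 3, and all groups shared the genotype, the age, the transfer to the tubes on the day before and the fixative. The level flight tube was fixed 1 min ahead of parabola 1, and the next tube at the start of that parabola, just after the aircraft had pitched up into its hyper-g climb. A pair, tubes A and B, was fixed at the midpoint of parabola 1, the passage from hyper-g to microgravity, by different crew members, and the last 3 tubes were fixed as parabolas 1, 3 and 10 ended. The labels give the arrays of a group as root pools from a single tube, so stage and tube cannot be told apart except between tubes A and B. Standard deviations and p-values therefore measure how far pools from the same tube differed, and hold no spread among tubes or among flights.

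Terpene synthases turn prenyl diphosphates into the carbon skeletons of monoterpenes, sesquiterpenes, diterpenes and larger terpenes. Their substrates come from the mevalonate pathway outside the plastid and from the methylerythritol phosphate (MEP) pathway inside it, joined by prenyl diphosphate synthases. Plant roots make and release many such compounds, several of which act in defence against herbivores and microbes. In bulk roots, fewer cells that express a gene and less transcript per cell cannot be told apart.

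Of 15 root markers, 3 were measured, which here means that a named single-gene probe set represented them. As 20927 probe sets of the table were unnamed, loci without a named one may still be on the array. The root beta-glucosidase gene PYK10 had tube means from 11.85 to 12.05 on the log2 scale, and the root hair expansin genes EXPA7 and EXPA18 from 3.83 to 4.17 and from 2.84 to 3.47. Of 20 shoot markers, 3 were measured. Column medians of the arrays lay between 2.92 and 3.04, and the median over the means of all named probe sets was 2.99, so EXPA18 lay below that median in tube A (2.84) and at parabola 10 end (2.85).

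Both genes had their lowest tube mean in level flight and their highest at the start of parabola 1. All values are on the deposited log2 scale, for which the submitters' processing notes name robust multi-array averaging (RMA). Over the 21 arrays AT1G33750 had a mean of 5.24, above 76.4% of the named probe sets, and AT3G29410 a mean of 6.58, above 89.4%. Each lay above the median of its array on 21 of 21 arrays.

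AT1G33750 measured 4.38, 4.80 and 4.50 in level flight (mean 4.56 ± 0.21, SD, n = 3, as for all means below). At the start of parabola 1 it measured 5.46, 5.71 and 5.88 (5.68 ± 0.22). Every array of the second tube thus lay above every array of the first. At the midpoint, tube A gave 5.58, 5.67 and 4.99 (5.41 ± 0.37), while tube B gave 4.83, 4.83 and 4.47 (4.71 ± 0.21). Tube A lay wholly above level flight and tube B overlapped it, with its lowest array at 4.47. The ends of the parabolas gave 5.29, 5.76 and 5.05 after parabola 1 (5.37 ± 0.36), 5.68, 5.37 and 5.70 after parabola 3 (5.58 ± 0.19), and 5.25, 5.33 and 5.57 after parabola 10 (5.38 ± 0.17). These 3 tubes overlapped one another and tube A, and all their arrays lay above those of level flight.

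**Figure D1:**
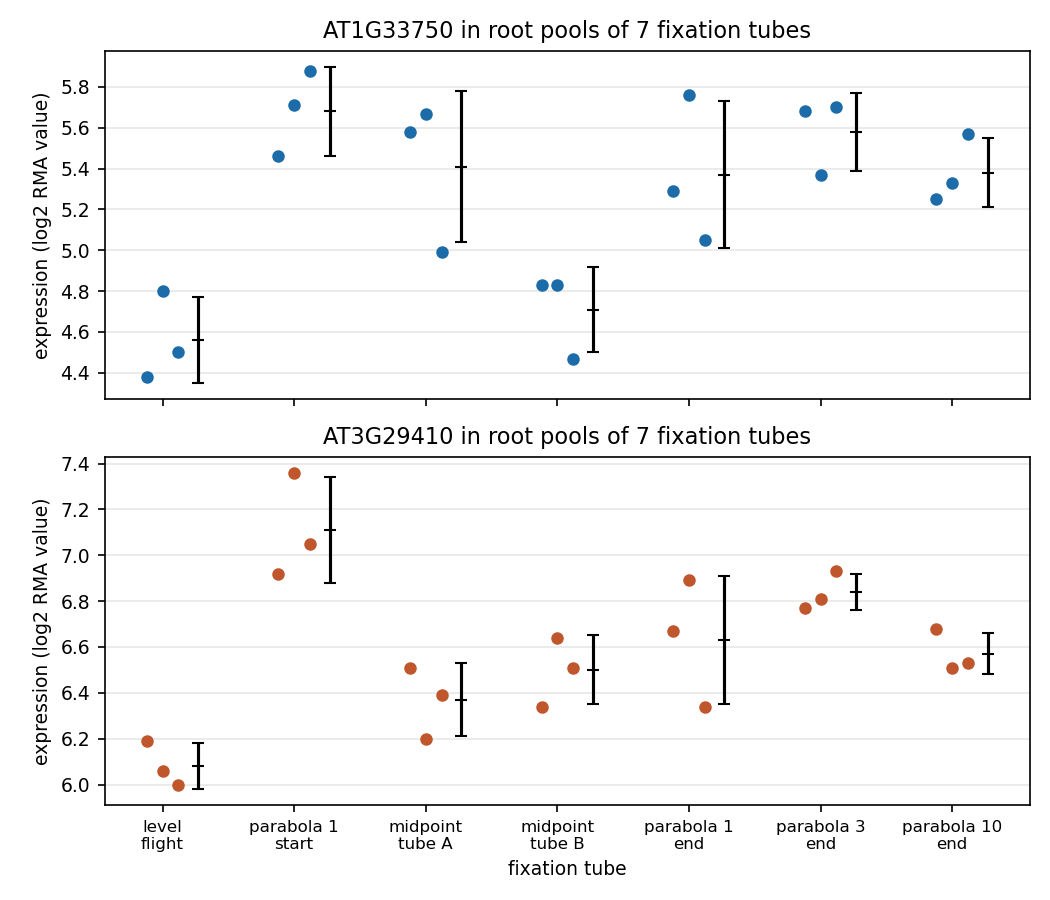
Expression of AT1G33750 (upper panel) and AT3G29410 (lower panel) on the log2 RMA scale in each of 7 fixation tubes. Points are arrays (root pools), and the black bars beside them are the mean ± SD of 3 arrays; the vertical axes do not start at 0. AT1G33750 is low in level flight (4.38 to 4.80) and in midpoint tube B (4.47 to 4.83), and AT3G29410 is lowest in level flight (6.00 to 6.19) and highest at the start of parabola 1 (6.92 to 7.36).

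AT3G29410 measured 6.19, 6.06 and 6.00 in level flight (6.08 ± 0.10). At the start of parabola 1 it measured 6.92, 7.36 and 7.05 (7.11 ± 0.23), again without overlap. Tube A gave 6.51, 6.20 and 6.39 at the midpoint (6.37 ± 0.16) and tube B 6.34, 6.64 and 6.51 (6.50 ± 0.15). The midpoint tubes overlapped each other. The ends of parabolas 1, 3 and 10 gave 6.67, 6.89 and 6.34 (6.63 ± 0.28), 6.77, 6.81 and 6.93 (6.84 ± 0.08), and 6.68, 6.51 and 6.53 (6.57 ± 0.09). All 18 arrays from tubes other than level flight lay above the 3 level flight arrays, the closest by 0.01 (tube A, 6.20 against 6.19). Among all 17481 named probe sets, 58 (0.332%) had their 3 level flight arrays below the other 18 in this way, and 144 (0.824%) had them above.

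In rising order of tube means, AT1G33750 ran from level flight (4.56) through tube B (4.71), parabola 1 end (5.37), parabola 10 end (5.38), tube A (5.41) and parabola 3 end (5.58) to parabola 1 start (5.68). One step of this order exceeded the pooled SD of its 2 tubes and had no overlap, namely the 0.66 between tube B and parabola 1 end (pooled SD 0.30). The remaining steps, 0.01 to 0.17, were smaller than the spread. For AT3G29410 the order was level flight (6.08), tube A (6.37), tube B (6.50), parabola 10 end (6.57), parabola 1 end (6.63), parabola 3 end (6.84) and parabola 1 start (7.11). The step of 0.29 from level flight to tube A exceeded the pooled SD of 0.13 and had no overlap. The last step, 0.27 against a pooled SD of 0.17, exceeded the spread although single arrays overlapped. From parabola 1 end to parabola 3 end the step of 0.21 was about as large as its pooled SD of 0.21, and the steps below it were 0.06 to 0.13.

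Set against level flight, AT1G33750 was higher by 1.12 at parabola 1 start (SE 0.19 in a limma fit of all 21 arrays, 2.18-fold). The difference was 0.85 in tube A (1.81-fold) and 0.15 in tube B (1.11-fold). The small tube B value depended on single arrays, with 0.061 without level flight replicate 1, 0.089 without tube B replicate 1 or 2, 0.272 when tube B replicate 3 was left out and 0.268 when level flight replicate 2 was. It was 0.81 at parabola 1 end (1.75-fold), 1.02 at parabola 3 end (2.03-fold) and 0.82 at parabola 10 end (1.77-fold). AT3G29410 was higher by 1.03 at parabola 1 start (SE 0.14, 2.04-fold), and by 0.29 and 0.42 in tubes A and B (1.22-fold and 1.33-fold). At the ends of parabolas 1, 3 and 10 its differences were 0.55, 0.76 and 0.49 (1.46-fold, 1.69-fold and 1.41-fold). These 6 comparisons share the level flight arrays, so a low or high level in that single tube enters all of them.

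The 3 arrays of a tube all lay above those of level flight in 5 of 6 comparisons for AT1G33750, tube B excepted, and in 6 of 6 for AT3G29410. Over all named probe sets the same held for 11.4% at parabola 1 start, 9.74% in tube A, 6.69% in tube B, 9.18% at parabola 1 end, 9.34% at parabola 3 end and 10.5% at parabola 10 end. The median difference of all named probe sets from level flight lay between 0 and 0.03. Since the genes were chosen on differences from level flight, nothing is read from these counts.

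Differences from parabola 1 start, the tube with the highest means, are likewise a description, since both genes were named for being high there. For AT3G29410 they were -0.74 in tube A and -0.61 in tube B. At the ends of parabolas 1, 3 and 10 they were -0.48, -0.27 and -0.54. AT1G33750 differed by -0.97 in tube B. In the other tubes its differences were smaller, with -0.27 in tube A, -0.32, -0.10 and -0.30 at the ends of parabolas 1, 3 and 10.

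Midpoint tubes A and B and the ends of parabolas 1 and 10 took no part in the values by which the genes were named. Their 6 pairs were tested with limma over all 17481 named probe sets, with Benjamini-Hochberg adjustment within each pair and a threshold of 0.05. Neither gene passed in any of the 6 pairs. The share of named probe sets that did pass was 1.4% for tube A against tube B, 2.47% for parabola 1 end against tube A, 0.132% for parabola 1 end against tube B, 5.55% for parabola 10 end against tube A, 0.858% for parabola 10 end against tube B and 2.33% for parabola 10 end against parabola 1 end.

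Between tubes A and B, which carry the same stage label, AT1G33750 was at 5.41 in A and 4.71 in B, a difference of 0.70 (SE 0.19, 95% interval 0.31 to 1.1, unadjusted p = 0.00133, limma adjusted p = 0.0708). The arrays did not overlap, as held for 7.25% of named probe sets in that direction. The side of the threshold on which this fell depended on single arrays and on the settings of the fit. Without tube A replicate 3, the pool at 4.99, the difference was 0.92 (limma adjusted p = 0.0117). Without parabola 1 end replicate 2, which enters only the estimate of the spread, the adjusted p was 0.0491, and over all 21 such omissions it ran from 0.0117 to 0.278. AT3G29410 differed by -0.13 between the same tubes (interval -0.42 to 0.16, limma adjusted p = 0.793).

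AT1G33750 also stood higher than tube B at the end of parabola 1, by 0.66 (interval 0.26 to 1.05, limma adjusted p = 0.193), and at the end of parabola 10, by 0.67 (interval 0.28 to 1.07, limma adjusted p = 0.109). Neither pair of tubes overlapped, as held for 7.54% and 8.5% of named probe sets. The intervals thus left room for differences of up to 2.08-fold and 2.09-fold that these arrays did not establish. Both pairs, and that of tubes A and B, share the tube B arrays, so a low level in that tube enters all of them. The 3 pairs among tube A and the ends of parabolas 1 and 10 gave AT1G33750 differences of -0.05, -0.03 and 0.01, with intervals between -0.44 and 0.41 and adjusted p from 0.944 to 0.986.

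AT3G29410 differences in the remaining 5 pairs lay between -0.06 and 0.26. The largest, parabola 1 end against tube A, had an interval of -0.02 to 0.55 (limma adjusted p = 0.384), and was 0.135 without parabola 1 end replicate 2 and 0.412 without parabola 1 end replicate 3 (limma adjusted p = 0.705 and 0.154). Its intervals over these 5 pairs ran from -0.34 to 0.55, so that differences above 1.46-fold in these pairs lay outside them.

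**Figure D2:**
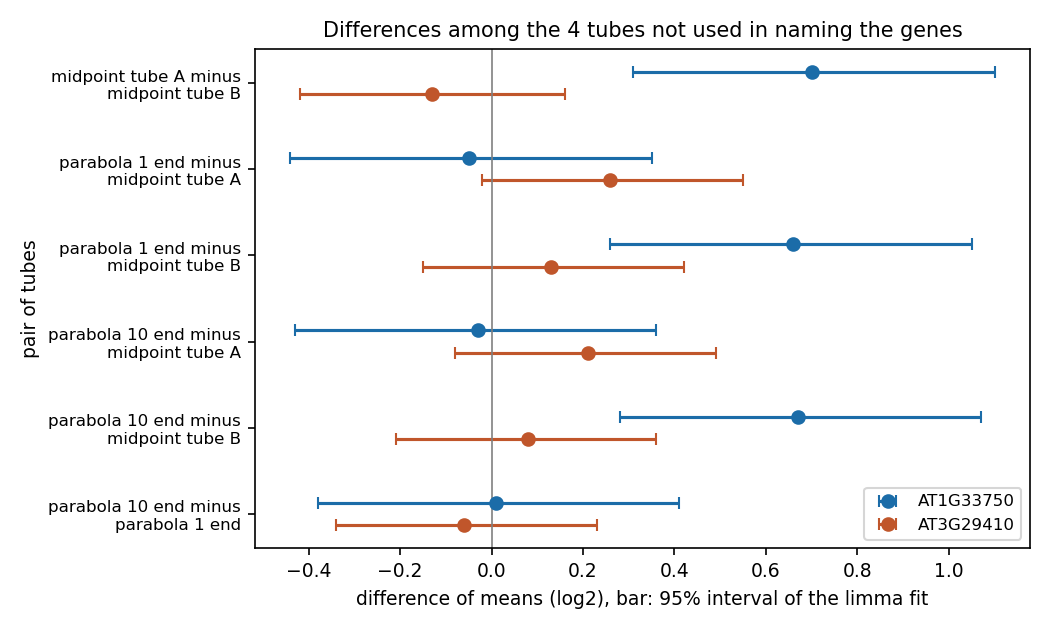
Differences of mean log2 RMA values for the 6 pairs among midpoint tube A, midpoint tube B, parabola 1 end and parabola 10 end (n = 3 arrays a tube). Points are differences and bars their 95% intervals in a limma fit of all 21 arrays, unadjusted for multiple tests. The intervals of AT1G33750 exclude 0 in the 3 pairs that hold tube B, which share the tube B arrays. None of the 12 differences passed after adjustment over all named probe sets.

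The genes were then compared with each other within arrays, as AT1G33750 minus AT3G29410, which shows unequal change and not which gene moved. This gap was -0.95 ± 0.44 (SD, n = 3) in tube A against -1.79 ± 0.27 in tube B, a difference of 0.83 without overlap. An exact two-sided permutation test gave p = 0.1, the smallest that 3 against 3 arrays allow (adjusted p = 0.2 over 6 pairs). Parabola 1 end (-1.26 ± 0.13) and parabola 10 end (-1.19 ± 0.24) did not overlap tube B in this gap either. Each gave the same exact permutation p of 0.1 (adjusted p = 0.2 over 6 pairs). Since no smaller p was possible, this test could not reach the threshold in any pair, and no difference is read from it. The 3 pairs that hold tube B share its arrays, and the share of other gene pairs without overlap was not computed. The remaining pairs gave exact permutation p from 0.4 to 0.7.

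Over the 21 arrays the levels of the genes had a Pearson r of 0.69 and a Spearman rho of 0.73. This is given without a p, since both genes were chosen for being high in the same tube and the 3 arrays of a group come from a single tube. Over the 7 tube means r was 0.79 and rho 0.75. With each array taken as a deviation from its tube mean, r was 0.27 and rho 0.16, so that pools of a tube with a higher AT1G33750 level had little tendency to a higher AT3G29410 level. Leaving out the arrays farthest from the median of AT1G33750, level flight replicate 1 and tube B replicate 3, gave r = 0.71 over 19 arrays.

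**Figure D3:**
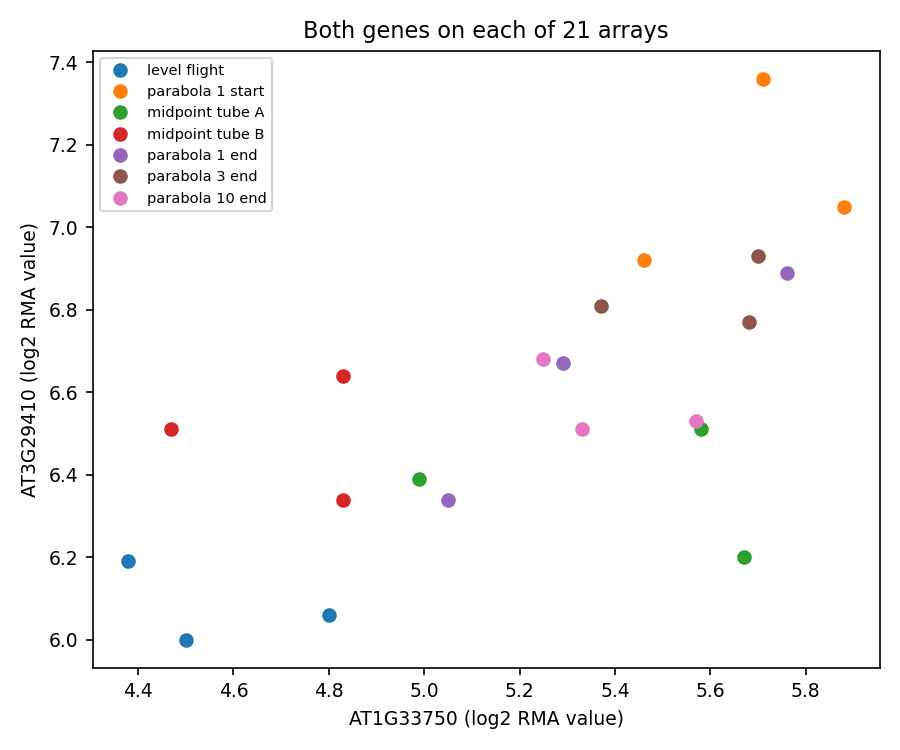
AT3G29410 against AT1G33750 on each of 21 arrays, both as log2 RMA values, coloured by fixation tube; the axes do not start at 0. Level flight lies at the lower left and parabola 1 start at the upper right, while tube B is low in AT1G33750 (4.47 to 4.83) and tube A low in AT3G29410 (6.20 to 6.51).

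The rest of the family gave the background for these levels. Of 33 terpene synthase loci listed from general knowledge of the family, 19 had a named probe set, the members among them. Of the other 17, 12 had means below the median of the named probe sets (1.72 to 2.85), and 5 lay above it. No detection call was used, so the 12 are not shown to be expressed. The brightest of the 17 probe sets was that of AT5G48110 (tube means 7.52 to 8.31) and the dimmest that of AT3G25810 (1.57 to 1.87), which does not order their transcript levels, since brightness also depends on the probes.

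Against level flight, 2 of the 17 rose in tube A, where 5.14% of all named probe sets passed and 1.65% passed upwards. AT5G48110 measured 7.58, 7.63 and 7.90 in level flight and 8.24, 8.37 and 8.31 in tube A, a rise of 0.61 (SE 0.17, 1.52-fold, limma adjusted p = 0.0425). AT1G48800 measured 3.45, 3.20 and 3.13 in level flight and 3.94, 4.04 and 3.63 in tube A, a rise of 0.61 (SE 0.18, limma adjusted p = 0.0475). Both lay close to the threshold. AT5G48110 lost the call in 11 of 21 omissions of 1 array, level flight replicates 1 and 2 and each tube A array among them (highest limma adjusted p = 0.157). AT1G48800 lost it in 14 of 21, each level flight array and tube A replicates 1 and 2 among them (highest limma adjusted p = 0.194), and under 5 of 7 other settings (adjusted p up to 0.0824).

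None of the 17 passed limma's test in the other comparisons with level flight. AT5G48110 came close at parabola 1 start, with 8.29, 8.17 and 8.45, a difference of 0.60 (SE 0.17, limma adjusted p = 0.0505). Its difference was 0.53 at parabola 10 end (limma adjusted p = 0.131) and -0.18 at parabola 1 end, so its higher level was not particular to tube A. At parabola 1 start, where 4.16% of all named probe sets passed, 6 of the 17 had an unadjusted p under 0.05 (5 higher and 1 lower), against 16.1% of all named probe sets. In tube B, where 0.0458% passed, none had one, against 8.16%. The unadjusted count was 5 at parabola 1 end (4 higher and 1 lower, against 13.3%), 2 at parabola 3 end (both higher, against 10.6%) and 3 at parabola 10 end (2 higher and 1 lower, against 14%). After adjustment, 1.14%, 0.458% and 1.45% of all named probe sets passed in these 3 comparisons. In tube A the unadjusted count was 4, all higher, against 16.9%. Values above 0 were found for 14 of 17 at parabola 1 start (median 0.15, against 0.01 for all named probe sets), 12 in tube A, 10 in tube B, 10 at parabola 1 end, 13 at parabola 3 end and 6 at parabola 10 end (median -0.04). Between tubes A and B none of the 17 passed limma's test, and 1 had an unadjusted p under 0.05, against 12.3% of all named probe sets.

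AT1G31950, singled out here after its values were seen, had its lowest tube mean in level flight, as the members did, and its highest at parabola 3 end. It measured 4.50, 4.46 and 3.98 in level flight, 5.68, 5.06 and 5.28 at parabola 1 start, and 5.81, 5.31 and 5.47 at parabola 3 end. Its differences from level flight were 1.03 at parabola 1 start (SE 0.31, limma adjusted p = 0.0635), 1.22 at parabola 3 end (limma adjusted p = 0.0825) and 1.01 at parabola 10 end (limma adjusted p = 0.103), none of which passed. At parabola 1 end its pools lay far apart, at 5.55, 5.57 and 4.13, while in tube B they lay close, at 4.71, 4.66 and 4.69.

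**Figure D4:**
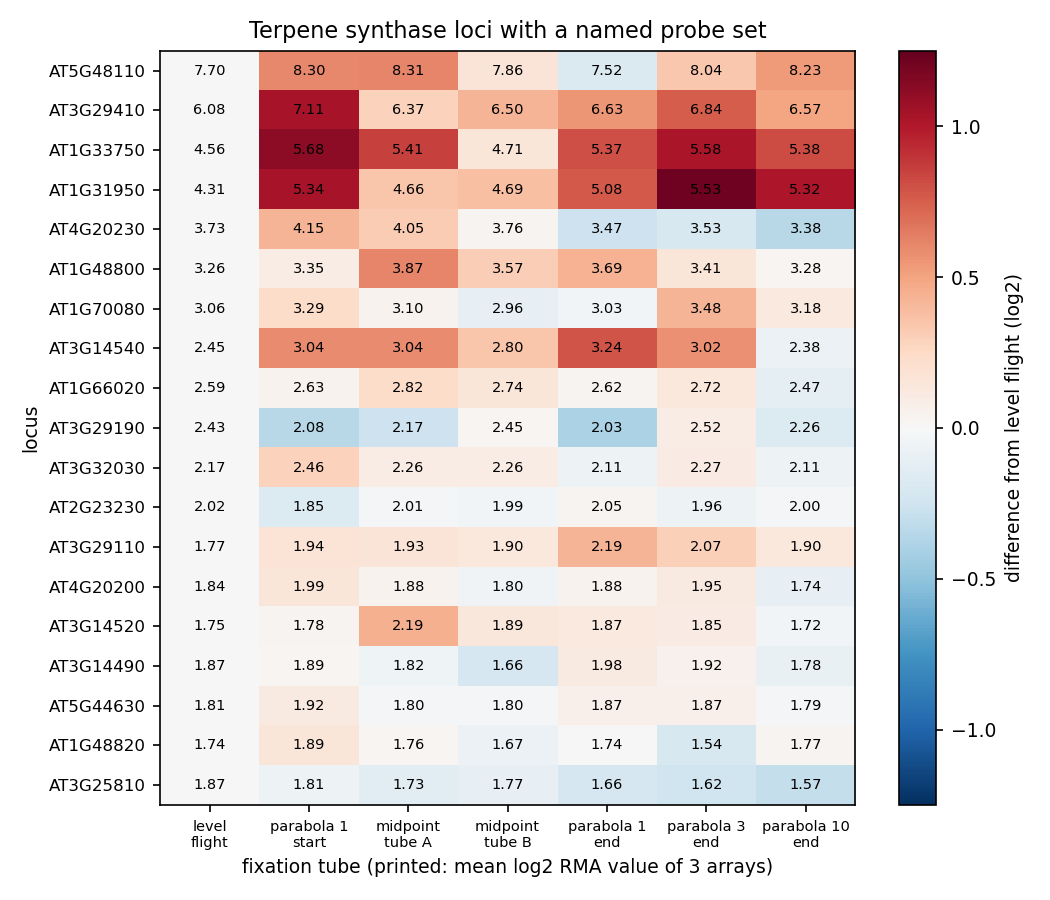
Mean log2 RMA value (printed, n = 3 arrays) of the 19 terpene synthase loci with a named probe set in each fixation tube, with the difference from level flight as colour. Rows are ordered by mean value, and levels of different probe sets are not comparable; AT1G33750, AT3G29410 and AT1G31950 show differences above 1 in at least 1 tube, and rows below AT1G70080 have means over the 21 arrays below 2.99.

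Few genes that supply terpene synthases had a named probe set. None of the 9 MEP pathway loci had a named probe set. Of 13 mevalonate pathway loci 2 did, and of 13 prenyl diphosphate synthase loci 6. No gene of these lists passed against level flight in any of the 6 comparisons by limma's test, with list medians from -0.04 to 0.22 and from -0.08 to 0.25. At parabola 1 start, 1 of the 2 mevalonate genes and 0 of the 6 prenyl diphosphate synthase genes had an unadjusted p under 0.05, against 16.1% of all named probe sets. Of the 2 mevalonate pathway genes, AT3G54250 measured 4.65 in level flight and 5.03 at parabola 1 start (difference 0.37, limma adjusted p = 0.101). The other, AT1G31910, measured 8.41 and 8.47 (difference 0.06, limma adjusted p = 0.833).

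Triterpenes derive from squalene and are formed by a separate family of cyclases, some of them encoded in gene clusters. Of 18 loci of a list that joins such cyclases with other genes of the clusters, 2 were measured. A passing gene of this list need not be a cyclase. AT5G47980 rose at parabola 1 start, where 4.16% of all named probe sets passed. It went from 3.23, 2.94 and 2.96 in level flight to 3.96, 3.84 and 4.16, by 0.94 (SE 0.17, 1.92-fold, limma adjusted p = 0.00205). The arrays at 2.94 and 2.96 lay below the median of the named probe sets (2.99), so the size of this difference is uncertain. AT5G47980 did not pass in the other 5 comparisons, and its mean at parabola 10 end was 2.84. With the tube as a random block the adjusted p at parabola 1 start was 0.105 (limma). The lupeol synthase family gene LUP5 was dim (tube means 2.15 to 2.60) and did not pass.

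Jasmonate is a hormone known to induce several terpene synthase genes. Of 25 loci of synthesis and signalling, the transcription factor genes MYC3 and MYC4 were measured. MYC3 had tube means from 7.58 to 7.88 and MYC4 from 2.64 to 3.14. Neither passed in a comparison with level flight. At parabola 1 start 1 of the 2, MYC4, had an unadjusted p under 0.05 (limma), against 16.1% of all named probe sets. Its difference there was 0.46 (limma adjusted p = 0.0602). MYC4 was dim, with a mean of 2.88 over the 21 arrays, below the median of the named probe sets (2.99).

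The 3 measured shoot markers, like the members, had higher means than level flight in all 6 comparisons. These comparisons share the level flight arrays, so a low level in that single tube enters all of them. The share of all named probe sets with higher means in all 6 was not computed, so nothing is read from this likeness. The sum of the linear values of RCA, LHCB4.1 and PORB, the 3 measured of 20, ran from 36.1 to 47.2 over the level flight arrays and from 57.7 to 60.9 at parabola 1 start. It was 51.7 to 66.9 in tube A, 47.1 to 68.2 in tube B, 44.2 to 57.8 at parabola 1 end, 48.1 to 57.3 at parabola 3 end and 47.5 to 60.8 at parabola 10 end. No marker was at 0, and PORB, which encodes a protochlorophyllide oxidoreductase, lay below the median of the named probe sets in level flight (2.43, 2.52 and 2.61). The size of its differences from level flight is therefore uncertain, since a signal that low may be background in part. PORB rose by 1.23 at parabola 1 start (SE 0.25, limma adjusted p = 0.00523) and by 1.19 in tube A (limma adjusted p = 0.00535), the former with an adjusted p of 0.153 with the tube as a random block, while the rubisco activase gene RCA and the light-harvesting gene LHCB4.1 did not pass. The part of shoot or light-responsive transcripts in the levels of the members was not tested. The linear sum of the 3 root markers lay between 3300 and 4550 over all arrays (3940 to 4050 in level flight) and was set almost wholly by PYK10. EXPA18 measured 3.24, 3.13 and 3.32 in level flight and 2.80, 2.94 and 2.78 in tube A. At parabola 10 end it measured 3.07, 2.89 and 2.58. Its differences of -0.39 and -0.39 did not pass (limma adjusted p = 0.245 and 0.309).

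Genes with the most similar profile were ranked by Pearson r over the 21 arrays among 16410 other genes. For AT1G33750 these were AT4G38890 (0.89), BZIP61, a bZIP transcription factor gene (0.89), TOPII, which encodes a DNA topoisomerase (0.84), AT1G04900 (0.81) and AT5G01020 (0.80). Within tubes their r was at least 0.54, with 0.81 for AT4G38890 and 0.71 for BZIP61. The r used for ranking already holds these deviations within tubes, so this is no separate check. Mean levels in level flight and at parabola 1 start were 6.25 and 6.51 for AT4G38890, and 4.94 and 5.98 for BZIP61. They were 5.84 and 6.28 for TOPII, 4.77 and 5.58 for AT1G04900, and 6.86 and 7.29 for AT5G01020. A high r thus went with differences of unlike size. AT3G29410 ranked 98 in this order.

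For AT3G29410 the most similar genes were AT2G19660 (0.82), AT5G23110 (0.81), AT1G36070 (0.81), AT2G04390 (0.79) and AT2G22660 (0.76). Within tubes their r was 0.31, 0.63, 0.53, 0.66 and 0.14, so that AT2G19660 and AT2G22660 followed AT3G29410 mainly from tube to tube (0.97 and 0.91 over 7 tube means). AT1G33750 ranked 33. The lists of 5 shared no gene.

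In the RefSeq gene order (assembly TAIR10.1), AT1G33750 is followed by AT1G33760 and AT1G33770, whose tube means were 1.64 to 1.92 and 1.88 to 2.1. AT3G29410 is followed by the transcribed pseudogene AT3G29420 and by AT3G29430 of the prenyl diphosphate synthase list, with tube means of 1.71 to 2.03. These 3 probe sets were dim, and none passed limma's test in any of the 6 comparisons with level flight (smallest adjusted p 0.513, 0.724 and 0.534). The preceding genes, among them EXO70E1 and RIK before AT3G29410, were not analysed here.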

How the data were processed

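The deposited values are on a log2 scale; of the authors' steps, the submitters' processing notes name RMA, oligo, limma and R 4.0.0, and the build TAIR10, without their roles. RMA brings the arrays to one distribution of probe intensities, which hides a shift of all transcripts at once. The table held 38408 probe sets on 21 arrays. The platform annotation named 17481, of which 16722 carry 1 gene and 759 several (tested, not named), and 16574 matched RefSeq (TAIR10.1). No coordinates are given.

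All named probe sets were fitted with limma 3.58.1 in R 4.3.3 (7 group means, 14 residual degrees of freedom, lmFit and eBayes, two-sided, no brightness filter), after testing on simulated data. Exact permutation tests used scipy 1.17.1. The genes and lists were chosen with earlier results of these arrays known. Named besides the members were other terpene synthase loci passing against level flight or with the highest and lowest mean, up to 4 passing genes of each other list, the 5 most correlated genes and the nearest 2 neighbours on each side. Some genes that did not pass were also named, outside this rule. Alternatives were leaving out each array, cyclic loess, a replicate block, a variance trend, array weights, only the arrays compared, brighter probe sets, all probe sets and the tube as a random block. The number of arrays limits the precision.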

Additional observations from a re-analysis of the deposited data

How the results depend on the processing

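The differences of both genes from level flight kept their sign and moved by less than 1 SD under cyclic loess, the replicate block and each omission of an array of the tubes compared; AT1G33750 at parabola 1 start ran from 1.023 to 1.241 and AT3G29410 from 0.905 to 1.125, while AT1G33750 in tube B ran from 0.061 to 0.272. AT3G29410 at parabola 1 end against tube A ran from 0.135 to 0.412. Midpoint tube A against tube B for AT1G33750 passed with brighter probe sets alone (0.704, limma adjusted p = 0.0431) and with array weights (0.756, adjusted p = 0.0484). It did not with the other settings that gave a value, and over omissions of single arrays it ran from 0.575 to 0.917. Parabola 10 end against parabola 1 end for AT1G33750 turned to -0.004 with cyclic loess and -0.044 with array weights, and from -0.145 to 0.21 over omissions. Other small differences that changed sign over omissions were AT1G33750 at parabola 1 end against tube A (-0.259 to 0.112) and parabola 10 end against tube A (-0.246 to 0.096), and AT3G29410 at parabola 10 end against tube B (-0.002 to 0.149) and parabola 1 end (-0.205 to 0.072). None of these passed. The cause of these changes was not tested.

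The count of other terpene synthase genes called at parabola 1 start was 0, but 1 with the replicate block or a variance trend, 2 with brighter probe sets or array weights and 3 with only the arrays compared (0 to 2 over omissions). In tube A it was 2, but 1 with cyclic loess, the replicate block, a variance trend or only the arrays compared and 0 with all probe sets (0 to 2 over omissions). At the ends of parabolas 3 and 10 it was 1 with array weights or only the arrays compared, and 0 to 1 over omissions, as at the end of parabola 1.

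The replicate numbers share no stated litter or day and did not pair the arrays: deviations of same-numbered arrays had r from -0.106 to 0.153, and 8 of 21 arrays were closest to their own number. Fitting only the arrays compared gave 0 calls between tubes A and B. The replicate block gave 224 calls between tubes A and B against 245 without it, and 3 against 8 for tube B against level flight. The tube as a random block (correlation 0.221, from tubes A and B, where duplicateCorrelation gave -0.073) treats these tubes as 1 stage and gave no value for either alone. It cut the calls against level flight from 728 to 10 at parabola 1 start, from 200 to 6, from 80 to 1 and from 253 to 0 at the ends of parabolas 1, 3 and 10, and with it AT5G47980 and PORB did not pass at parabola 1 start (adjusted p = 0.105 and 0.153). Each gene had 1 named single-gene probe set, so another of that kind could not be tried.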
